A study of Mus musculus with 9 samples.

Results

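The genes described here are 37 genes of the interferon response and of antigen presentation, chosen by symbol from a fixed list and taken from the 22161 gene rows of a kidney RNA-seq table. All 37 had a row, and all 37 passed the filter on low values that left 15740 genes for testing (a mean of at least 10 normalized counts over the 9 libraries). They fell into 6 groups by role: 4 sensors of nucleic acids, 4 transcription factors, 15 antiviral effectors and regulators, 4 class I genes, 5 genes of peptide processing and loading, and 5 class II genes.

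Each library came from the kidney of 1 mouse at 10 weeks of age (postnatal day 70), on a background labelled C57BL/6. The wild type group (WT) had 3 mice, and the labels do not say whether these carry any of the transgenes. The Pkd2 knockout group (KO) had 3 mice of genotype Pkd2 fl/fl; Pax8rtTA; TetO-cre, and the double knockout group (DKO) had 3 mice of genotype Ift88 fl/fl; Pkd2 fl/fl; Pax8rtTA; TetO-cre. All 9 mice, wild type included, had doxycycline by mouth (2 mg/ml), begun on postnatal day 28 and given over 2 weeks. Doxycycline lets the rtTA protein switch on the TetO-driven cre, and Pax8 restricts rtTA mainly to kidney tubule cells, so leukocytes, endothelium and connective tissue keep the floxed genes. Pkd2 encodes the channel polycystin-2, which is mutated in a form of polycystic kidney disease, and Ift88 encodes a transport protein that cilia need. In the text a number after WT, KO or DKO names 1 mouse. WT 3 and KO 3 carry a name prefix that differs from that of mice 1 and 2 of their group. The 3 DKO mice share a prefix of their own, with a hyphen in the name of DKO 3 only. The groups have no prefix in common, so between groups prefix and genotype cannot be told apart. Within WT and within KO, prefix cannot be told apart from mouse 3.

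Type I and type II interferons bind receptors that signal through Janus kinases to Stat and Irf transcription factors. These act on genes that sense viral RNA, block viral growth and load peptides onto class I molecules, which nearly all cells carry. Class II molecules present peptides to helper T cells. They are made mainly by dendritic cells, macrophages and B cells under the transactivator Ciita, and interferon gamma can switch Ciita on in other cells. In a kidney the class I and antiviral genes can come from tubule cells and leukocytes alike, and in bulk tissue fewer cells of a type and less RNA per cell cannot be told apart.

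The promoters of these genes are shown first because the sequence elements in them define the interferon and class II programmes. The interferon-stimulated response element (ISRE) is bound by Stat and Irf factors. The Y box is the CCAAT-type element that class II and some class I promoters share. RefSeq promoter windows (GRCm38.p6, 250 bases before to 50 after a transcript start) were found for 26 of the 37 genes. The ISRE core was searched on both strands as GAAANNGAAA, where N is any base. Of the 26 genes, 12 held it: B2m, Bst2, Ddx58, Gbp2, Gbp3, Ifih1, Ifit1, Ifit3, Isg15, Oas1a, Rsad2 and Stat2. Counted by window it was in 38.7% of the 31 windows of these genes and in 3.44% of all 32851 windows. Ddx58 is the 1 gene of the list called in a comparison by the main test (limma). It is shown with Gbp2, Isg15 and B2m, from 150 bases before the start to 20 after it, with the ISRE core in capitals on either strand. The stretches are chr4:40239806-40239975 (minus strand) for Ddx58, chr3:142620513-142620682 (plus) for Gbp2, chr4:156200799-156200968 (minus) for Isg15 and chr2:122147537-122147706 (plus) for B2m.
Ddx58: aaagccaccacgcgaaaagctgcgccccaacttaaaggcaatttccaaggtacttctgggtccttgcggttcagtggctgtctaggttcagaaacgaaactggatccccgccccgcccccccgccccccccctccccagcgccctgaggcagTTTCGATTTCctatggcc
Gbp2: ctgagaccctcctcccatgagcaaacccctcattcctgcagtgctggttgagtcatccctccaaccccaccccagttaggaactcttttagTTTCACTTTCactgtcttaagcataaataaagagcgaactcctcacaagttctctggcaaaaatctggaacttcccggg
Isg15: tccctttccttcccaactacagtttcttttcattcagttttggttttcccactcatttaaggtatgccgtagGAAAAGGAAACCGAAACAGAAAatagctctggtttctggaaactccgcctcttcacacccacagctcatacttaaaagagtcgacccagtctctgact
B2m: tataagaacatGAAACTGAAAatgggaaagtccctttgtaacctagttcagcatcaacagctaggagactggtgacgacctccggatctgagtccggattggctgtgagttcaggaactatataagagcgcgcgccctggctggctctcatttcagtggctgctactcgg
In Ddx58 the match lay just after the start and on the opposite strand. Isg15 held 3 overlapping matches, which run together in the capitals.

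The Y box was searched as CTGATTGG on both strands, and 6 of the 26 genes held it, all of them antigen presentation genes: H2-Aa, H2-D1, H2-Eb1, H2-K1, Psmb9 and Tap1. The windows of Psmb9 and Tap1 overlap head to head and share 1 match. The Y box was in 22.6% of the windows of the listed genes and in 4.1% of all windows. The class II genes H2-Aa (chr17:34287804-34287973, minus strand) and H2-Eb1 (chr17:34305717-34305886, plus) are shown over the same span with the Y box in capitals.
H2-Aa: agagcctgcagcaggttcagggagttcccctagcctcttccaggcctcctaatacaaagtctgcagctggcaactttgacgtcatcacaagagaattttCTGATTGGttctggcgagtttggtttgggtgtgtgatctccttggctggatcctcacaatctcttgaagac
H2-Eb1: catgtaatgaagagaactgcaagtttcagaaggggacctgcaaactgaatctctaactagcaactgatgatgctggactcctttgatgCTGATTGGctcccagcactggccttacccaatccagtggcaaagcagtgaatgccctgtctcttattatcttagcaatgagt
The gamma-activated site (GAS), an element of the interferon gamma response searched as TTCNNNGAA, was in 6 of the 26 genes (Bst2, Ifi35, Ifit2, Irf1, Oas1a and Psmb8). That is 19.4% of their windows against 8.3% of all windows, and in Bst2 it overlaps an ISRE match. A match is a description of the letters and not a measured binding site. Some genes are named only: Cd74, Ciita, Dhx58, H2-Ab1, Mx1, Mx2, Nlrc5, Rtp4, Tap2, Usp18 and Zbp1.

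Normalized totals were 40454151 to 42874467 per library, and 37056843 to 47314829 reads were recovered per library. Genes encoded by mitochondrial DNA took 9.21 to 10.8% of the totals. Kidney markers were abundant in every library, with the sum of 6 proximal tubule markers between 477223 and 560230 normalized counts. Pkd2 was 13768 to 14505 in WT, 4723 to 5549 in KO and 3777 to 5181 in DKO mice, and Ift88 was 1056 to 1132, 1086 to 1214 and 691 to 831, so the levels went with the genotype labels. Reads from parts of these genes that were not deleted are still counted. KO 3 stood apart in the summed erythroid markers (6176, against 91.0 to 1012 in the other 8 mice) and had the highest fat and adrenal sum (5222, against 1728 to 3949).

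The comparison of KO with WT asks for the effect of losing Pkd2. Means of the listed genes were higher in KO than in WT kidneys for 35 of 37 genes, against 50.8% of all genes tested, yet the test separated only 1 of them from the spread between mice. With limma (Benjamini-Hochberg adjusted p below 0.05, adjusted over all 15740 genes), 1 of 37 was called higher and 0 lower. Over all genes limma called 1.14% higher and 1.25% lower in the same comparison. The median log2 fold change of the 37 genes was 0.24, against 0.00 for all genes tested, on the log2(normalized count + 1) scale. The median was 0.15 without KO 2 and 0.45 without KO 3. At an unadjusted p below 0.05, 5 of 37 were higher (Ddx58, Gbp2, Ifit2, Irf9 and Mx2) and 0 lower, where all genes had 9.36% higher and 8.67% lower. All 3 KO mice lay above all 3 WT mice for 3 genes (Ddx58, Gbp2 and Irf1) and below them for 0. Among all genes tested, 12.4% lay wholly above and 12.8% wholly below, so the count of separated groups was not above the background. edgeR on the recovered reads called 1 of 37 (Ddx58) and DESeq2 called 2 (Ddx58 and Gbp2). Over all genes edgeR called 1.11% higher and 1.29% lower, and DESeq2 3.79% and 3.65%.

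**Figure D1:**
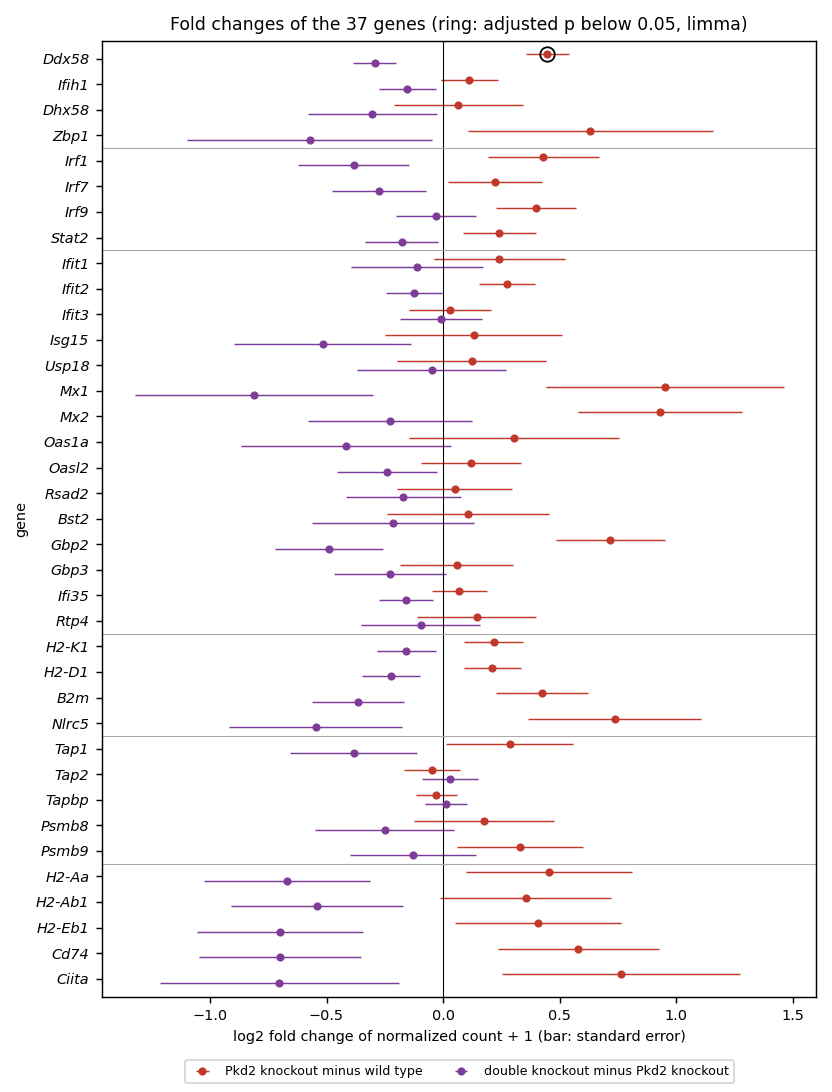
Log2 fold change of each of the 37 genes (rows, grouped by role) on the log2(normalized count + 1) scale, with its standard error from limma, for Pkd2 knockout minus wild type and for double knockout minus Pkd2 knockout. The first set lies above 0 for 35 of 37 genes and the second below 0 for 35 of 37. Both use the same KO mice, and Ddx58 in the first set is the 1 ringed value.

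The comparison of DKO with KO asks for the effect of removing Ift88, and with it the cilium, when Pkd2 was lost as well. Means were lower in DKO than in KO kidneys for 35 of 37 genes (51.3% of all genes had a higher mean), with a median log2 fold change of -0.24 (all genes, 0.00). This median was -0.11 without KO 2, -0.47 without KO 3 and -0.43 without DKO 3. limma called 0 of 37 in either direction, against 0.127% higher and 0.267% lower over all genes. At an unadjusted p below 0.05 it gave 1 gene, Ddx58, lower, where all genes had 6.49% lower and 4.19% higher. edgeR called 0 (all genes, 0.292% lower and 0.127% higher) and DESeq2 called 0 (2.05% and 0.953%). At an unadjusted p below 0.05 edgeR gave 2 and DESeq2 gave 5, and for these tools the shares of all genes at that level are not given here. The groups did not overlap for 1 gene, Ddx58, with DKO below KO, and for 0 with DKO above, where all genes had 7.78% below and 7.4% above. Both comparisons use the same KO mice, so a rise in the first and a lower level in the second are not independent of each other.

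Set directly against WT, the DKO kidneys had higher means for 18 genes and lower means for 19, with a median log2 fold change of -0.01. limma called 0 of 37 (0 at an unadjusted p below 0.05, where all genes had 5.93% higher and 5.81% lower). edgeR called 0 (0 unadjusted) and DESeq2 0 (1 unadjusted), and for these tools the unadjusted shares of all genes are not given here. Over all genes limma called 0.0762% higher and 0.152% lower, edgeR 0.0572% and 0.152%, and DESeq2 1.11% and 1.35%. DKO lay wholly above WT for 2 genes (Ddx58 and Irf9) and wholly below for 0, where all genes had 9.1% above and 9.24% below.

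Among single mice, KO 1 and KO 2 were the high ones and KO 3 was not. KO 1 exceeded the highest WT mouse for 24 of 37 genes and KO 2 for 29, and neither lay below the lowest WT mouse for any of them. KO 3 exceeded the highest WT mouse for 4 genes (Ddx58, Gbp2, Ifit2 and Irf1) and lay below the lowest for 15. In all genes tested, between 27.3% and 31.4% of genes lay above the WT range in each mutant mouse, and 28.2% to 31.2% below. KO 1 and KO 2 were both above all WT mice for 23 genes (23.2% of all genes), and for 20 of these KO 3 was not (10.8% of all genes). KO 3 was below both other KO mice for 33 of 37 genes (89.2%), which was so for 42.0% of all genes. In the DKO group DKO 3 was above both others for 33 of 37 (36.9% of all genes), DKO 2 was the lowest of the 9 mice for 15 (10.2% of all genes), and KO 2 was the highest of the 9 for 20 (10.3% of all genes). These counts describe genes that vary together, not independent observations.

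**Figure D2:**
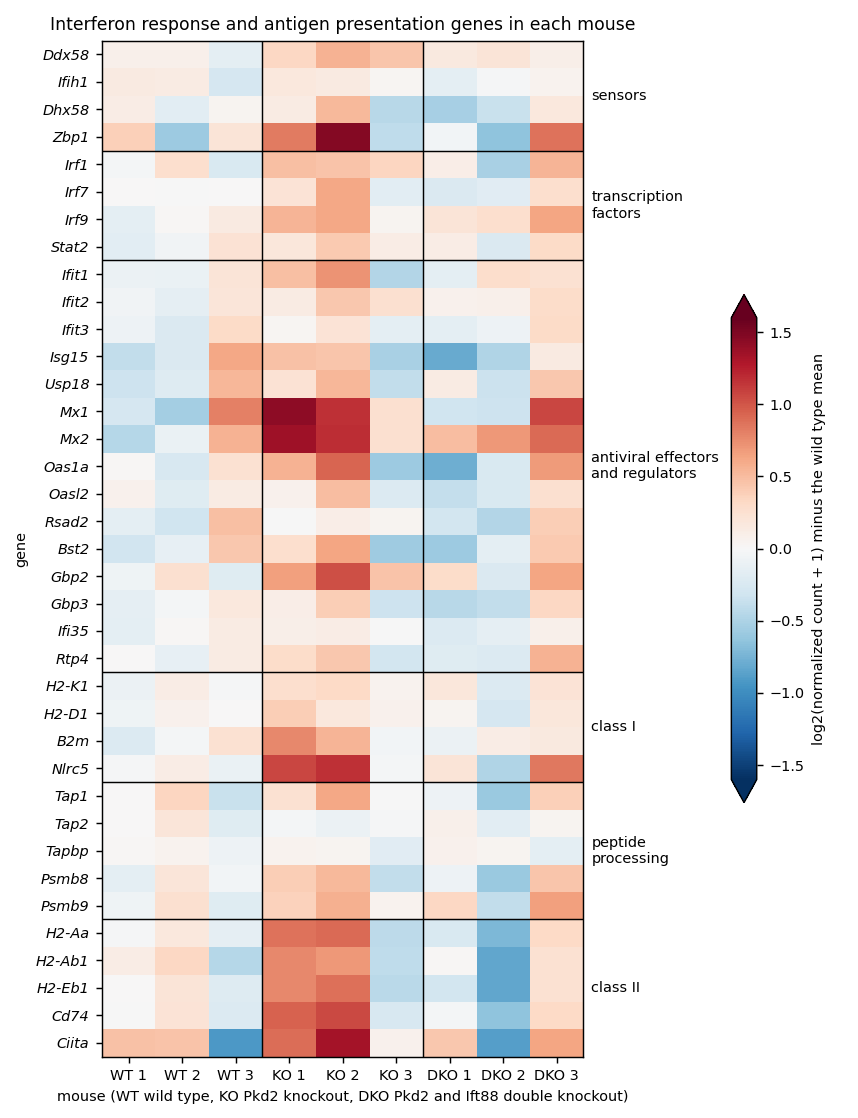
Each cell is log2(normalized count + 1) in 1 mouse minus the mean of the 3 wild type mice, for the 37 genes in rows by role and the 9 mice in columns. Red runs through KO 1, KO 2 and DKO 3 in most rows, while KO 3 is above the wild type range for 4 genes and DKO 2 for 4.

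The sensors recognise foreign or displaced nucleic acid in the cytosol. Ddx58 (RIG-I, a sensor of short viral RNA) was 1099.8, 1104 and 933 normalized counts in WT 1 to 3, 1315, 1540.0 and 1415 in KO 1 to 3, and 1162, 1203 and 1114 in DKO 1 to 3. Every KO mouse was above every WT and every DKO mouse, and every DKO mouse was above every WT mouse. Ddx58 rose in KO against WT by 0.45 ± 0.09 on the log2 scale (SE, n = 3 a group; limma adjusted p = 0.0435). The adjusted p lay between 0.0502 and 0.162 when any 1 of the 9 libraries was left out, so the call was lost each time, while the fold change stayed between 0.37 and 0.50. DKO against KO was -0.29 ± 0.09 (limma adjusted p = 0.264) and DKO against WT 0.15 ± 0.09 (0.568). Ifih1 (MDA5, a sensor of long RNA) was close in the 3 groups, with means of 793, 851 and 765. Dhx58 (LGP2, which tunes the other RNA sensors) had means of 71.1, 77.0 and 61.2. Zbp1, a sensor of Z-form nucleic acid, ran from 36.1 to 71.3 in WT, 40.9 to 152 in KO and 34.4 to 101 in DKO mice, and none of these 3 sensors was called in any comparison.

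The 4 transcription factors had higher KO than WT means, and none was called. Irf9, the DNA-binding part of the complex it forms with Stat2, was 518, 585 and 636 in WT, 840.2, 884 and 594 in KO and 665, 698 and 892 in DKO mice. KO 1 and KO 2 were above the WT mice and KO 3 lay inside their range, while all DKO mice were above all WT mice. The log2 fold change was 0.40 ± 0.17 for KO against WT (limma adjusted p = 0.265) and 0.37 ± 0.17 for DKO against WT (0.445). Irf1, a factor that acts early after interferon gamma, was 419.8, 514 and 361 in WT, 599, 589 and 541 in KO and 461, 299 and 623 in DKO mice. KO and WT did not overlap for Irf1, and the DKO mice spanned the range of both. Its log2 fold change in KO was 0.43 ± 0.24 (limma adjusted p = 0.377). Stat2, with the highest counts of the 4, was 700.0, 754 and 919.8 in WT, 892, 1053 and 853 in KO and 852, 669 and 969.8 in DKO mice, and all 3 groups overlapped. Irf7, which amplifies type I interferon production, was 343 to 346 in WT mice and 307 to 530 in KO mice.

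Of the 15 antiviral effectors and regulators, all 15 had a higher mean in KO than in WT and a lower mean in DKO than in KO, and 0 were called in any of the 3 comparisons by limma. In KO against WT 3 of them were higher and 0 lower at an unadjusted p below 0.05 (all genes, 9.36% and 8.67%). Their median log2 fold change was 0.13 for KO against WT and -0.22 for DKO against KO. Gbp2, a GTPase that attacks membranes around intracellular microbes, was 273, 344 and 251 in WT, 453, 589 and 395 in KO and 351, 244 and 444 in DKO mice. All KO mice exceeded all WT mice, and the DKO mice overlapped both groups. The log2 fold change of Gbp2 in KO was 0.72 ± 0.23 (limma adjusted p = 0.15; DESeq2 adjusted p = 0.0468). Mx2, a GTPase of the Mx family of antiviral proteins, was 21.1, 27.0 and 43.5 in WT, 76.5, 67.3 and 35.1 in KO and 41.7, 48.0 and 55.6 in DKO mice. KO 1 and KO 2 were the highest of the 9 and KO 3 lay between WT 2 and WT 3. Its log2 fold change in KO was 0.93 ± 0.35 (limma adjusted p = 0.209). Leaving out WT 3 together with KO 3 gave 1.55, which limma called (adjusted p = 0.0329).

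Mx1, the related antiviral GTPase, was 14.6 to 39.2 in WT, 26.3 to 60.6 in KO and 17.2 to 47.0 in DKO mice, with WT 3 and DKO 3 high in their groups. Rsad2 (viperin, which makes a chain-terminating nucleotide) had the highest counts of the 15, at 1301, 1163 and 2033 in WT, 1451, 1569 and 1497 in KO and 1189, 1048 and 1916 in DKO mice. WT 3 and DKO 3 were the highest of the 9, and the KO mice lay inside the WT range. The RNA-binding proteins Ifit1, Ifit2 and Ifit3 had log2 fold changes of 0.24, 0.27 and 0.03 in KO, and Ifit2 was 570.2 to 717 in WT and 688 to 846 in KO mice. Isg15, the ubiquitin-like protein joined to other proteins during the response, was 53.2 to 109 in WT, 48.7 to 97.3 in KO and 39.7 to 77.6 in DKO mice. Usp18, which removes Isg15 and dampens the receptor, ran from 72.3 to 133 in WT and from 69.2 to 132 in KO mice, so neither gene of this pair stood apart. Oas1a and Oasl2, of the oligoadenylate synthetase family that senses double-stranded RNA, had log2 fold changes of 0.30 and 0.12 in KO. Bst2 (tetherin, which holds budding virus at the cell surface) had 0.11. Gbp3 had 0.06, Ifi35 0.07 and Rtp4 0.14, each smaller than its standard error.

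**Figure D3:**
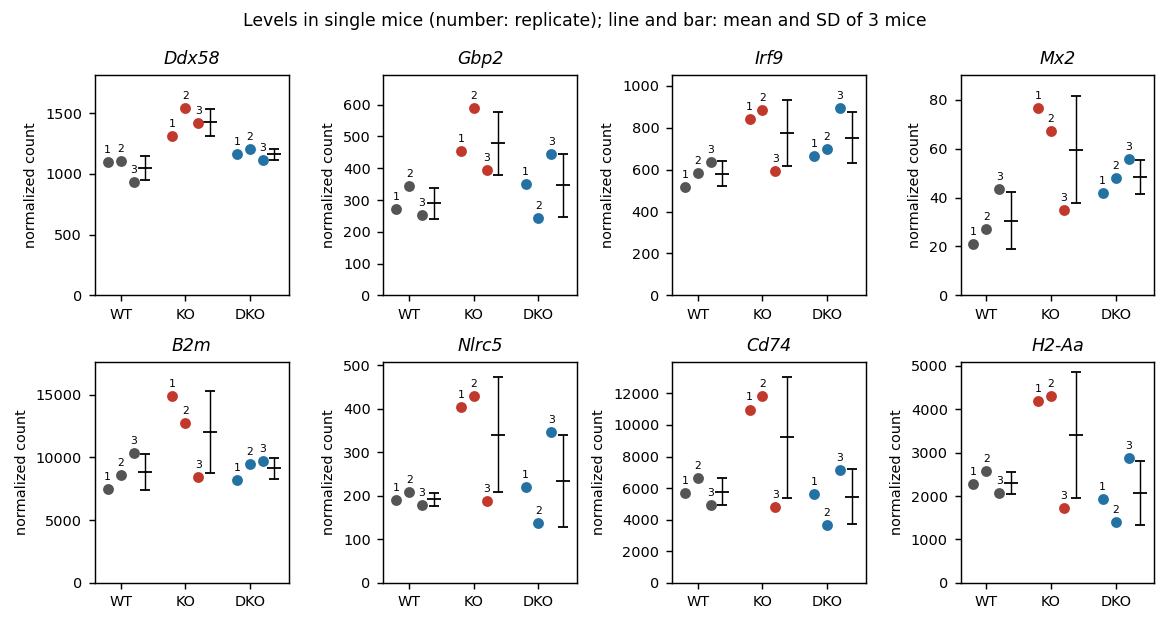
Normalized counts of 8 genes in single mice, with the replicate number beside each point and the group mean with its SD (n = 3 mice) to the right of the points. Axes start at 0 and differ between panels. For Ddx58 the KO mice lie above all others, whereas for Mx2, B2m, Nlrc5, Cd74 and H2-Aa KO 1 and KO 2 lie above all WT mice and KO 3 lies within or below the WT range.

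Class I molecules show peptides from inside the cell to killer T cells. The 4 genes of this group all had higher means in KO than in WT and lower means in DKO than in KO, and limma called 0 of 4 in any comparison, also at an unadjusted p below 0.05. B2m, the light chain of every class I molecule, was 7508 (WT 1), 8563 (WT 2) and 10376 (WT 3), then 14933, 12727 and 8454 in KO and 8172, 9475 and 9707 in DKO mice. KO 1 and KO 2 were above the other 7 mice and KO 3 was below WT 2 and WT 3. Its log2 fold change was 0.42 ± 0.20 in KO against WT (limma adjusted p = 0.302) and -0.37 ± 0.20 in DKO against KO (0.589). Without WT 3 and KO 3, B2m was called in both, at 0.78 (adjusted p = 0.0303) and -0.60 (0.0482). Nlrc5, which switches on class I genes, was 189.8, 208 and 179 in WT, 404, 431 and 188 in KO and 221, 137 and 346 in DKO mice. KO 1, KO 2 and DKO 3 were high, KO 3 lay inside the WT range, and its log2 fold change in KO was 0.74 ± 0.37 (limma adjusted p = 0.338). The heavy chains H2-K1 and H2-D1 moved less, with log2 fold changes of 0.22 ± 0.13 and 0.21 ± 0.12 in KO. Class I genes are near-identical to their neighbours in places, and how the counting shared such reads is not given in the sources used here.

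Of the 5 genes of peptide processing 3 had higher and 2 lower means in KO than in WT, and limma called 0 in any comparison, also at an unadjusted p below 0.05. Tapbp (tapasin, which holds class I molecules at the peptide transporter) was 3841, 3939 and 3568 in WT, 3928, 3884 and 3332 in KO and 3949, 3896 and 3395 in DKO mice. The third mouse was the lowest in each group, the groups overlapped, and the log2 fold changes were -0.03 ± 0.09 in KO against WT and 0.01 ± 0.09 in DKO against KO. Tap2, a subunit of that transporter, was as level, with means of 500.2, 481 and 492. Its partner Tap1 was 363, 457 and 281 in WT, 425, 555 and 358 in KO and 341, 237 and 469 in DKO mice. KO 2 was the highest and DKO 2 the lowest of the 9, and neither of the log2 fold changes (0.29 ± 0.27 in KO against WT and -0.38 ± 0.27 in DKO against KO) was called by limma (adjusted p of 0.62 and 0.72). Psmb9, a catalytic subunit of the immunoproteasome that cuts proteins into class I peptides, was 115, 144 and 106 in WT, 156, 179 and 126 in KO and 153, 91.5 and 192 in DKO mice, and all groups overlapped. Psmb8, another such subunit, had a log2 fold change of 0.17 ± 0.30 in KO.

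All 5 class II genes had higher KO than WT means, with a median log2 fold change of 0.45, and lower DKO than KO means, with a median of -0.70, and limma called 0 of 5 in any comparison, also at an unadjusted p below 0.05. Cd74, the invariant chain that guides class II molecules to the compartment where peptides are loaded, was 5717, 6652 and 4938 in WT, 10978, 11864 and 4803 in KO and 5606, 3652 and 7134 in DKO mice. H2-Eb1, a class II beta chain, was 2261, 2597 and 1956 in WT, 3853, 4147 and 1679 in KO and 1837, 1270 in DKO 1 and DKO 2 and 2674 in DKO 3. H2-Aa, a class II alpha chain, was 2273, 2577 and 2074 in WT, 4181, 4317 and 1726 in KO and 1938, 1396 and 2867 in DKO mice. In all 3 genes KO 1 and KO 2 were above the other 7 mice, KO 3 was below every WT mouse, and DKO 2 was the lowest of the 9. The log2 fold changes in KO against WT were 0.58 ± 0.35 for Cd74, 0.41 ± 0.36 for H2-Eb1 and 0.45 ± 0.36 for H2-Aa (limma adjusted p of 0.408, 0.584 and 0.538). DKO against KO gave -0.70 ± 0.35, -0.70 ± 0.36 and -0.67 ± 0.36 (adjusted p of 0.538, 0.549 and 0.581). In the fit that left out WT 3 and KO 3 these became 0.89, 0.72 and 0.81 for KO against WT (adjusted p of 0.115, 0.197 and 0.147, limma) and -1.12, -1.12 and -1.10 for DKO against KO (adjusted p of 0.0765, 0.0904 and 0.0863), so none passed.

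H2-Ab1, the partner beta chain of H2-Aa, was 1769 to 3051 in WT, 1829 to 4148 in KO and 1366 to 2874 in DKO mice, again with KO 1 and KO 2 highest and DKO 2 lowest. Ciita, the master switch of class II genes, was 199, 196 and 75.1 in WT, 266, 362 and 150.1 in KO and 193, 77.0 and 223 in DKO mice. WT 3 was the lowest of the 9 for Ciita, KO 3 was the lowest of its group and DKO 2 of its own. Its log2 fold change was 0.76 ± 0.51 in KO against WT (limma adjusted p = 0.465).

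Summed markers of macrophages, conventional dendritic cells and T cells were high in KO 1 and KO 2 and not in KO 3. This was also so for the class II genes. The NK cell sum was divided in this way by a small margin, and the sums of B cells and neutrophils were not. The sum of the 4 class II molecules (H2-Aa, H2-Ab1, H2-Eb1 and Cd74) was 10736 to 14878 in WT, 23159.9 and 24243 in KO 1 and KO 2, 10036 in KO 3, and 11829.9, 7684 and 15548 in DKO 1 to 3. The 14 macrophage and monocyte markers summed to 8984 to 9728 in WT, 12795 and 12490.0 in KO 1 and KO 2, 9371 in KO 3 and 8766 to 9328 in DKO mice. The largest parts of this sum were Csf1r (2948 in WT 1 and 3469 in KO 1) and Mertk (3609 and 3580), so it weighs the other markers little. The 9 markers of conventional dendritic cells summed to 694 to 809.5 in WT, 1239 and 1348 in KO 1 and KO 2, 646 in KO 3 and 641 to 889 in DKO mice. Thus KO 1 and KO 2 were above the other 7 mice in each of these sums. Itgax, a dendritic cell and macrophage integrin named after its values were seen, was 85.99 to 133 in WT, 327, 350.4 and 102 in KO 1 to 3 and 65.2 to 161 in DKO mice. The 10 T cell markers summed to 169 to 270.4 in WT, 360.5 and 469 in KO 1 and KO 2, 172 in KO 3 and 276, 214 and 675 in DKO 1 to 3. Of this sum Trac alone, named after its values were seen, gave 279 in DKO 3 and 47.7 in KO 2. The 4 plasmacytoid dendritic cell markers summed to 96.9 to 142 in WT, 224, 183 and 142 in KO 1 to 3 and 70.7 to 160 in DKO mice. The 8 NK cell markers summed to 70.8 to 94.7 in WT, 102, 98.1 and 60.4 in KO 1 to 3 and 39.0 to 102 in DKO mice. The 4 neutrophil markers summed to 51.2 to 98.03 in WT and 90.4, 94.4 and 79.9 in KO 1 to 3. The part of these cells in the class II and antiviral gene levels was not tested. No marker of any list was at 0 in all mice.

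The defining markers were low but present. Adgre1 (listed under its older symbol Emr1), which marks macrophages, was 114 to 181 in WT, 329, 257 and 125 in KO 1 to 3 and 115.99 to 166 in DKO mice. Flt3 of dendritic cells was 20.1 to 25.9 in WT and 42.7, 57.9 and 12.7 in KO 1 to 3, Xcr1 was 7.89 to 20.7 and 25.8, 29.9 and 10.7, and Siglech of plasmacytoid dendritic cells was 14.1 to 15.8 and 36.7, 32.7 and 12.7. Cd3e of T cells was 13.1 to 36.1 in WT and 57.6, 65.4 and 18.5 in KO 1 to 3. KO 3 was the lowest of the KO group for each of these 5 markers. Over whole lists KO 3 was the lowest KO mouse for 13 of 14 macrophage and monocyte markers, 9 of 9 conventional and 4 of 4 plasmacytoid dendritic cell markers, 9 of 10 T cell markers, 5 of 8 NK cell, 1 of 8 B cell and 1 of 4 neutrophil markers. KO 1 and KO 2 were both above all WT mice for 13, 9, 3, 8, 3, 2 and 1 of these markers, in the same order of lists. A different macrophage marker went otherwise in each count, and both are named after their values were seen. KO 3 was not the lowest for the receptor gene Csf1r, at 3469, 3277 and 3526 in KO 1 to 3. KO 1 and KO 2 were not above all WT mice for Mertk, at 3367 to 3609 in WT and 3580, 3457.5 and 2879.5 in KO 1 to 3. Ncr1 of NK cells stayed between 2.72 and 8.41 in all mice and S100a8 of neutrophils between 5.44 and 28.2. The 8 B cell markers summed to 177 to 270.2 in WT, 293, 1020 and 656 in KO 1 to 3 and 1176, 115.99 and 3066 in DKO 1 to 3. Much of this sum was Ighm, named after its values were seen, at 118 to 175 in WT and 206, 841 and 541 in KO 1 to 3. In DKO 1 to 3 Ighm was 1088, 82.5 and 2937. The endothelial sum did not go with the class II genes. Its 8 markers summed to 17323 to 18393 in WT, 18360.2, 16982 and 15264 in KO 1 to 3 and 15418 to 17229.6 in DKO mice. Pecam1 was 2166 to 2194.5 in WT, 2776, 2203 and 2194.2 in KO 1 to 3 and 1927 to 2145 in DKO mice. Cdh5, named after its values were seen, was 1332 to 1594 in WT and 1749, 1651 and 1372 in KO 1 to 3. In both genes KO 1 and KO 2 were above all WT mice and KO 3 was not, which was not so for Kdr, Tek, Tie1 and Emcn.

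KO 3 did resemble the other KO mice in dividing cells. The 5 markers of dividing cells summed to 305 to 413 in WT and to 1931, 2361 and 2272 in KO 1 to 3, and Mki67, a protein of cycling cells, was 969, 1166 and 1177 in KO 1 to 3. Its Pkd2 level (5549) was also near that of KO 1 and KO 2. The high erythroid sum of KO 3 rested on Hbb-bs among others (3506, against 42.2 to 607 in the other 8 mice), and Adipoq, a fat cell gene, was 460.1 in KO 3 and 50.1 to 250.3 elsewhere. Their part in the low class II counts of KO 3 was not tested.

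**Figure D4:**
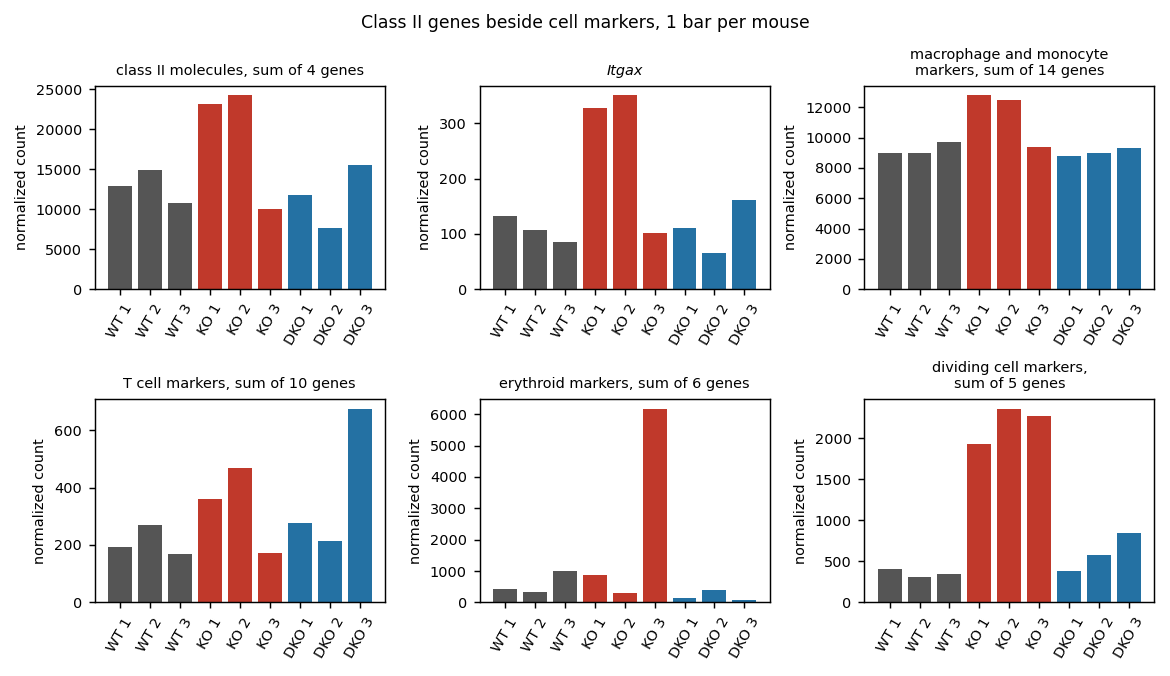
Normalized counts in each mouse, 1 bar per mouse, for the sum of 4 class II genes, for Itgax and for the summed markers of 4 cell types. KO 1 and KO 2 are the highest bars for class II genes, Itgax and macrophage markers. DKO 3 is the highest for T cell markers, where 279 of its sum is the single gene Trac. KO 3 alone is high for erythroid markers, and all 3 KO mice are high for dividing cell markers.

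The rest of the pathway was read from lists of 168 other genes, of which 144 had a row and 138 were tested. In KO against WT limma called 4 of 138 higher and 0 lower, with 22 higher and 2 lower at an unadjusted p below 0.05 (all genes, 9.36% and 8.67%) and a median log2 fold change of 0.16. edgeR called 4 higher and 0 lower, and DESeq2 11 higher and 2 lower. Over all genes limma called 1.14% higher and 1.25% lower, edgeR 1.11% and 1.29%, and DESeq2 3.79% and 3.65%. The interferon ligands were at the edge of detection. Ifng was 0 to 5.75 normalized counts across the 9 mice, Ifnk 0 to 3.01 and Ifnz 0 to 1.13, so none was tested. The other 18 listed ligands, Ifnb1 among them, are not analysed here.

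Of 9 receptor and kinase genes limma called 1 in KO against WT, and DESeq2 called 3 (Il10rb, Ifnar1 and Ifngr2). Il10rb, the shared receptor chain of interleukin 10 and interferon lambda, was 1274, 1303 and 1354 in WT, 1624, 1657 and 1720.5 in KO and 1619.9, 1622 and 1508 in DKO mice. Both mutant groups lay above WT, and the log2 fold change of 0.35 ± 0.06 in KO was called (limma adjusted p = 0.0319), while that of 0.27 ± 0.06 in DKO was called by DESeq2 (adjusted p = 0.0118) and not by limma (0.162). The Il10rb call was kept in 4 of the 9 fits that left out 1 library. Ifnar1, a chain of the type I receptor, was 2001, 2100.4 and 2238 in WT and 2605, 2661 and 2486 in KO, and 2334 to 2383 in DKO mice, without overlap between the 3 groups. Its log2 fold change in KO was 0.29 ± 0.06 and was called by DESeq2 (adjusted p = 0.00108) and not by limma (0.0518). Ifngr2, of the interferon gamma receptor, was 702 to 841 in WT, 1228, 1006 and 907 in KO and 717 to 833 in DKO mice (0.41 ± 0.13 in KO, limma adjusted p = 0.129, DESeq2 adjusted p = 0.0447). Ifnar2, Ifngr1 and Ifnlr1 had log2 fold changes of 0.19, 0.10 and 0.13 in KO, and the kinases Jak1, Jak2 and Tyk2 had 0.10, -0.08 and 0.02.

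None of the 16 other sensors and adaptors was called by limma in KO against WT. Of the 16, 14 had higher means in KO, against 50.8% of all genes. At an unadjusted p below 0.05, 4 were higher and 0 lower (all genes, 9.36% and 8.67%). DESeq2 called the kinase gene Ikbke higher in KO (adjusted p = 0.0363) and in DKO (0.0273) than in WT.

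Among 68 other interferon-stimulated genes limma called 2 higher and 0 lower in KO against WT. DESeq2 called Cxcl10, Oasl1, Samd9l, Slfn9 and Xaf1 higher and Ifi44l lower (adjusted p = 0.015 for Ifi44l), where it called 3.79% of all genes higher and 3.65% lower. Samd9l, an interferon-induced antiviral gene, was 10599.8, 9407 and 8843 in WT, 13501, 12012 and 13634 in KO and 10838, 11905 and 11125 in DKO mice. All KO mice and all DKO mice lay above all WT mice (0.44 ± 0.09 in KO, limma adjusted p = 0.0343). Slfn9, of the Schlafen family, was 31.1, 30.4 and 49.0 in WT, 117, 91.6 and 83.8 in KO and 27.5, 40.8 and 48.9 in DKO mice. Every KO mouse was above the other 6, and its log2 fold change of 1.40 ± 0.28 was called (limma adjusted p = 0.0388), while that of -1.32 ± 0.28 for DKO against KO was called by DESeq2 (adjusted p = 0.00404) and not by limma (0.0988). Each of the 2 calls was kept in 3 of the 9 fits that left out 1 library. None of 19 tested class I and processing genes outside the main list and none of 13 such class II genes was called in any comparison by limma, with median log2 fold changes of 0.00 and 0.16 in KO against WT. DESeq2 called Psme1, a proteasome activator subunit, lower in KO (adjusted p = 0.0405). At an unadjusted p below 0.05, 1 of the 19 was lower and 0 of the 13 differed in KO against WT (all genes, 8.67% lower). In DKO against KO 2 of each were lower (all genes, 6.49%).

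In DKO against KO limma called 1 of the 138 other pathway genes lower and 1 higher (all genes, 0.267% and 0.127%). At an unadjusted p below 0.05, 20 were lower and 2 higher, where all genes had 6.49% and 4.19%. edgeR called 1 lower and 1 higher (all genes, 0.292% and 0.127%), and DESeq2 5 and 2 (2.05% and 0.953%). Ifi27l2a, a small interferon-induced protein, was 172, 135 and 159 in WT, 229, 193 and 248 in KO and 77.3, 95.1 and 108 in DKO mice. Every DKO mouse was below every other mouse and every KO mouse above them, and Ifi27l2a fell by 1.25 ± 0.17 on the log2 scale (limma adjusted p = 0.0314). The call was kept in 5 of the 9 fits that left out 1 library. Ifi202b, an interferon-inducible gene whose level differs between inbred mouse strains, was 0, 0 and 2.18 in WT, 1.99, 0 and 0.975 in KO and 18.3, 53.5 and 37.4 in DKO mice. It was higher in DKO against KO (limma adjusted p = 0.0409) and against WT (0.0403). It was the 1 other pathway gene that limma called in DKO against WT, where 6 were higher and 5 lower at an unadjusted p below 0.05 (all genes, 5.93% and 5.81%). Leaving out 1 library kept the first call in 1 of 9 fits and the second in 2 of 9, and both were lost with a pseudocount of 0.1 and with quantile normalization. edgeR called the first difference in Ifi202b and not the second (adjusted p of 0.04 and 0.0526), and no fold is given because the other groups were at 0 to 2 reads. The labels give 1 strain for all 9 mice, and the part of strain in this difference was not tested. No row matched H2-Ea, the class II gene that differs between strains, which is not analysed here.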

How the data were processed

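Kidney poly(A) libraries of 9 mice were analysed, 3 in each of the 3 groups that the sample titles name, as biological replicates per the series design. The deposited values are a signal, gene counts scaled to 1 factor per library. Per the submitters' processing notes the authors used STAR 2.5.0, HTSeq 0.6.1 and DESeq2. The sources used here do not give the build, the annotation or the use of strand. When a library's values were divided by what 1 read is worth in it (0.906 to 1.13), 100% came out whole within 0.005 in all 9 libraries, against 16.6 to 35.9% of undivided values at a tolerance of 0.05. In WT 1, with 1.00, and KO 1, with 0.993, that value is near 1, and their recovery rests on these shares.

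limma 3.58.1 (R 4.3.3) was fitted to log2(normalized count + 1) of all 9 libraries with 1 mean per group and an intensity trend, over the 15740 of 22161 genes with a mean of at least 10. Tests were two-sided with Benjamini-Hochberg adjustment over these genes, and a gene was called at an adjusted p below 0.05. The pseudocount makes fold changes of low genes too small. edgeR 4.0.16 and DESeq2 1.42.0 were run on the recovered reads. Errors are those between mice, since reads of 1 library need not be separate molecules. Of the row names, 25 had become dates.

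The listed genes and all other lists were chosen with earlier results of these data known. Every listed gene may be named. Values in every mouse are given for called genes and, in a role group without one, for the 2 with the smallest unadjusted p and the one with the highest counts, and, chosen with their values known, for H2-Aa and Ciita. From the other lists come called genes, receptors, ligands, strain-variable genes and defining markers, some of which are not reported here. The deviations of same-numbered mice from their group means had correlations of -0.14 to 0.21 (9 pairs), and the same number matched best in 3 of 9. With 3 mice a group this cannot exclude pairing, and the reported fit used none. Alternatives were other pseudocounts, filters, scalings, weights and groups, a replicate block, and leaving out libraries.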

Additional observations from a re-analysis of the deposited data

How the results depend on the processing

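The number of the 37 genes called by limma in KO against WT was 1 in the reported fit. It was 1 with edgeR, with median-ratio, TMM and quantile scaling, with pseudocounts of 0.1 and 10, and over genes with a mean of 50 or more. It was 0 with no filter on low values, no intensity trend, or only the 2 groups compared (adjusted p of Ddx58 of 0.0526, 0.0694 and 0.0789), and 0 to 0 without any 1 library. With the replicate block it was 0 (Ddx58 adjusted p = 0.0618). It was 11 with array quality weights, which called 10.8% of all genes higher and 9.64% lower, and all 11 were higher (B2m, Cd74, Ddx58, Gbp2, H2-Aa, Ifit2, Irf9, Mx1, Mx2, Nlrc5 and Stat2). It was 2 without WT 3 and KO 3 (B2m and Mx2; all genes, 1.72% higher and 1.54% lower) and 2 with DESeq2 (3.79% and 3.65%). In DKO against KO the count was 2 with array quality weights (Cd74 and H2-Eb1, lower, as were 2.64% of all genes), 1 without WT 3 and KO 3 (B2m, lower, as were 1.3% of all genes) and 0 in the other fits. In DKO against WT it was 0 in every fit run. The cause of these differences was not tested.

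The median log2 fold change of the 37 genes stayed between 0.15 and 0.45 for KO against WT and between -0.47 and -0.11 for DKO against KO. For DKO against WT it ran from -0.20 without DKO 3 to 0.13 without DKO 2. Over all genes leaving out 1 library gave 70 to 436 calls in KO against WT (377 with all 9), 8 to 155 in DKO against KO (62) and 18 to 58 in DKO against WT (36). DESeq2 called 597 higher and 575 lower in the first, 150 and 322 in the second, 175 and 212 in the third. For the other pathway genes leaving out 1 library gave 0 to 4, 0 to 2 and 0 to 1 calls. No fold change of the 37 genes that was called in any fit changed sign. The fit of limma to the libraries with recovered reads was not run, since those are all 9 libraries.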

Other observations

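These values were chosen after they were seen. Ifi44l, an interferon-stimulated gene, was 60.3, 55.2 and 2.18 normalized counts in WT 1 to 3, 0, 3.74 and 1.95 in KO 1 to 3 and 3.05, 47.1 and 66.1 in DKO 1 to 3. The mice fell into a high set of 4 and a low set of 5 that cut across the WT and DKO groups, and limma as fitted here called the gene in no comparison. DESeq2 called it in KO against WT (adjusted p = 0.015) and in DKO against KO (0.0305), and limma with array quality weights in KO against WT (0.0127). The lymphocyte transcripts Trac and Ighm were highest in DKO 3. Trac, the T cell receptor alpha constant gene, was 279 in DKO 3 and 17.5 to 101 in the other 8 mice. Ighm, the heavy chain of IgM, was 2937 in DKO 3, 1088 in DKO 1 and 82.5 in DKO 2, with 118 to 175 in WT and 206, 841 and 541 in KO 1 to 3.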
